A study of Mus musculus with 5 samples.

Results

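Imprinted growth and hormone genes were followed in mouse mesenchymal stem cells that lack TSG-6. The genes are Dio3, Igf2, Mest, Ndn, Peg3, Plagl1, Grb10 and Cdkn1c, taken by symbol from the deposited table of 12621 genes. Of these 8 genes, 7 were found, and Peg3 was not analysed here. The knockout cells (KO, 3 libraries, with the column suffixes C1, C2 and SE) lack TSG-6, the secreted hyaluronan-binding protein encoded by Tnfaip6, and the wild-type cells (WT, 2 libraries, C1 and SE) carry the intact gene. Every sample carries the strain label Balb/c (C.129S6). The labels give no age, no tissue of origin and no meaning for the suffixes. According to the design text each cell type had 2 biological replicates, whose source it does not name, so a p-value here measures the spread between these 5 libraries, which may be technical.

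An imprinted gene is transcribed mainly from the copy inherited from 1 parent. The parental copies are told apart by CpG methylation laid down in the egg or sperm, and, depending on the locus, the methylated or the unmethylated copy is the active one. Many imprinted genes set the supply of growth signals before birth, and paternally expressed genes often favour growth where maternally expressed genes restrain it. Igf2 (a growth factor), Mest (a hydrolase-like protein of mesoderm), Ndn (the MAGE protein necdin), Plagl1 (a zinc finger transcription factor) and Peg3 are paternally expressed in most tissues. Grb10 (an adaptor that dampens insulin and IGF receptors) and Cdkn1c (an inhibitor of cyclin-dependent kinases) are maternally expressed in most tissues. Dio3 encodes the selenoenzyme that inactivates thyroid hormone and lies at the end of an imprinted cluster in which its paternal copy is favoured. Counts per gene cannot show which parental copy a read came from.

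The windows around the transcription starts are shown because CpG dinucleotides are where imprinting marks are written, and the capitals in each line mark every CpG. Windows run 5′ to 3′ from 250 bases before to 50 bases after a RefSeq start on GRCm38.p6. Of the 7 genes, 6 had at least 1 window, 12 windows in all, and 1 window each is printed for the genes with the largest rises (Dio3 and Grb10), for Mest and Ndn, and for Plagl1, the member that fell. They lie at chr12:110278980-110279279 (plus strand) for Dio3, chr11:12037371-12037670 (minus strand) for the upstream start of Grb10, chr6:30737800-30738099 (plus strand) for 1 of 2 near-identical downstream starts of Mest, chr7:62348027-62348326 (plus strand) for Ndn and chr10:13090582-13090881 (plus strand) for Plagl1.
Dio3: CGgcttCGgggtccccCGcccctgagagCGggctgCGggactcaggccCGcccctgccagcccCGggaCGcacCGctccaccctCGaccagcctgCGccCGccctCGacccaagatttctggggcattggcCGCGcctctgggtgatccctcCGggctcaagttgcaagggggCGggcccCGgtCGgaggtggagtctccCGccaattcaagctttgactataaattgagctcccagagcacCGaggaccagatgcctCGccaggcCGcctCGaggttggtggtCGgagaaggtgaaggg
Grb10: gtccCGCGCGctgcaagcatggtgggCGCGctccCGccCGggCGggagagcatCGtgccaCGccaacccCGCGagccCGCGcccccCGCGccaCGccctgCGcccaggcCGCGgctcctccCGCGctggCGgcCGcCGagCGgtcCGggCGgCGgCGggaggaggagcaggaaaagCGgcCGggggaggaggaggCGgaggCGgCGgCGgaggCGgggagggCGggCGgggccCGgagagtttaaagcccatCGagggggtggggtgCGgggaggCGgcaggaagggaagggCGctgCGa
Mest: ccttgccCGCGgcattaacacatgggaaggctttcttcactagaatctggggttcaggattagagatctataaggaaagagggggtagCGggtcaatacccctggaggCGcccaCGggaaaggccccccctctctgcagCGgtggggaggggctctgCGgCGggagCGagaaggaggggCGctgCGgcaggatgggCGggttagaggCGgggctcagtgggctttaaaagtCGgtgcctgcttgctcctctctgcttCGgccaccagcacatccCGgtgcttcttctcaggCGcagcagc
Ndn: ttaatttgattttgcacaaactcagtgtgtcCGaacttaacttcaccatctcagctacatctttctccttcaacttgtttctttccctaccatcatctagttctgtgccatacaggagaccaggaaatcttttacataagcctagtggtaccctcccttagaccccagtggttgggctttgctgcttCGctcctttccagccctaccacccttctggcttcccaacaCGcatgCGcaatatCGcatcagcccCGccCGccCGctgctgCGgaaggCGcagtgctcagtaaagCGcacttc
Plagl1: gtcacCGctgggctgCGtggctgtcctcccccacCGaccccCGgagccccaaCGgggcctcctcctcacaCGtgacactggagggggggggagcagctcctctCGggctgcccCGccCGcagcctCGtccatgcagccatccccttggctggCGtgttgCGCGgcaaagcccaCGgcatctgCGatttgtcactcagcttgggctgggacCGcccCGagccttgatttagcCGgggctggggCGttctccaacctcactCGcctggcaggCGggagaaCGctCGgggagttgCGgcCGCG

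The Grb10 window held 45 CpGs, more than 98.1% of the 32851 mouse windows of the same length. The Plagl1 window held 26 CpGs and the Dio3 window held 25, against a median of 7 over all windows. The Mest window held 17 and the Ndn window 11. The other start of Grb10 had 9 CpGs, and the 4 starts of Igf2 had 2, 14, 24 and 7. The letters TATAAA, searched on both strands, were found in 1 of the 12 windows, that of Dio3 on its own strand, and in 13.6% of all windows. The letters GGGGCCCC, a palindrome and the core of the site reported for the Plagl1 protein, were in 0 of the 12 windows and in 1.08% of all windows. The table gives 1 value per gene, so the start in use cannot be read from it.

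Expression was read as normalised counts, which are read counts that the authors scaled to the size of CPM. Totals of reads assigned to genes ran from 13605555 to 26658725 per library. Knockout and wild-type cells differed widely, with 4279 of 12484 tested genes (34.3%) past an adjusted p of 0.05 (limma, Benjamini-Hochberg). The targeted gene Tnfaip6 had 1.65, 2.38 and 1.36 normalised counts in knockout C1, C2 and SE, against 6.04 and 3.21 in wild-type C1 and SE. Every knockout library was below both wild-type libraries, but the difference did not pass the threshold (adjusted p = 0.0578), and the deleted segment is not stated in the labels. Of 13 stromal markers, 12 were measured, and Pdgfra, Pdgfrb, Eng, Itgb1 and Vcam1 were read in every library without a called difference. Nt5e, another defining marker, had 0.752, 0.946 and 0.358 normalised counts in knockout C1, C2 and SE, against 77.4 and 121 in wild-type C1 and SE, and Cd44 and Ly6a were also lower in the knockout. None of 8 endothelial markers was among the measured genes. Xist, the RNA that coats an inactive X chromosome, had 14.1, 19.6 and 19.1 normalised counts in the knockout libraries, against 0.527 and 0.104 in wild-type C1 and SE.

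All 7 measured members differed between knockout and wild-type cells, with 6 higher and 1 lower in the knockout. Over all genes tested, 17.2% were higher and 17.1% lower. The median log2 fold change was 3.43 over the members and -0.09 over all genes tested. The knockout and wild-type values did not overlap for any of the 7, which held for 58.8% of all genes tested (28.0% with the knockout higher and 30.7% with the knockout lower). Dio3, Igf2 and Cdkn1c entered the test only through their knockout values. The low-value filter asked for a normalised count of at least 1 in at least 2 libraries, so a gene silent in the wild type had to differ to be included. Grb10 also depended on its knockout values, because of the wild-type libraries only SE (1.76) reached 1. The members were also chosen with earlier results of these data known. The share of members called and their median log2 fold change are therefore a description and carry no weight of their own.

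**Figure D1:**
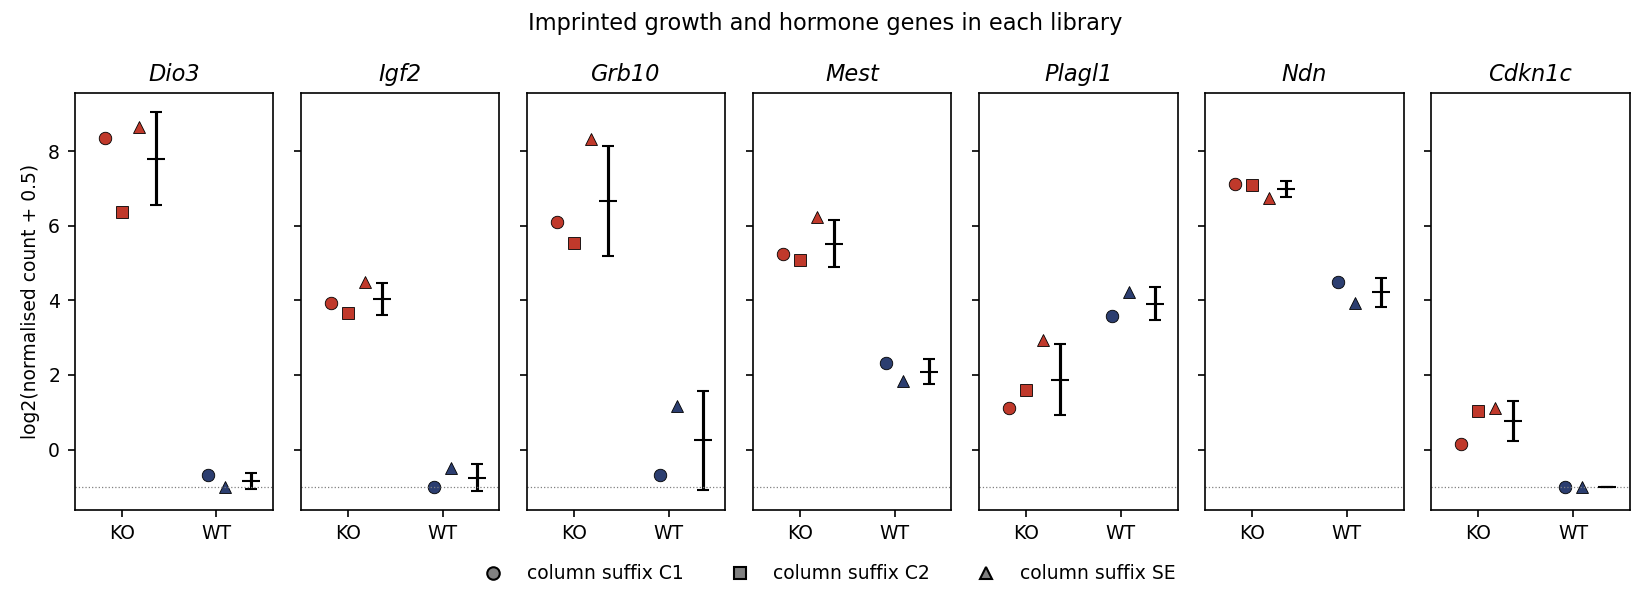
Each panel shows 1 gene, with knockout (KO) libraries left of wild-type (WT) libraries, as log2 of the normalised count plus 0.5. Symbols mark the column suffix, black bars the mean and SD on that scale (n = 3 KO and n = 2 WT), and the dotted line a count of 0. Knockout values lay above wild-type values for 6 genes and below them for Plagl1.

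**Figure D2:**
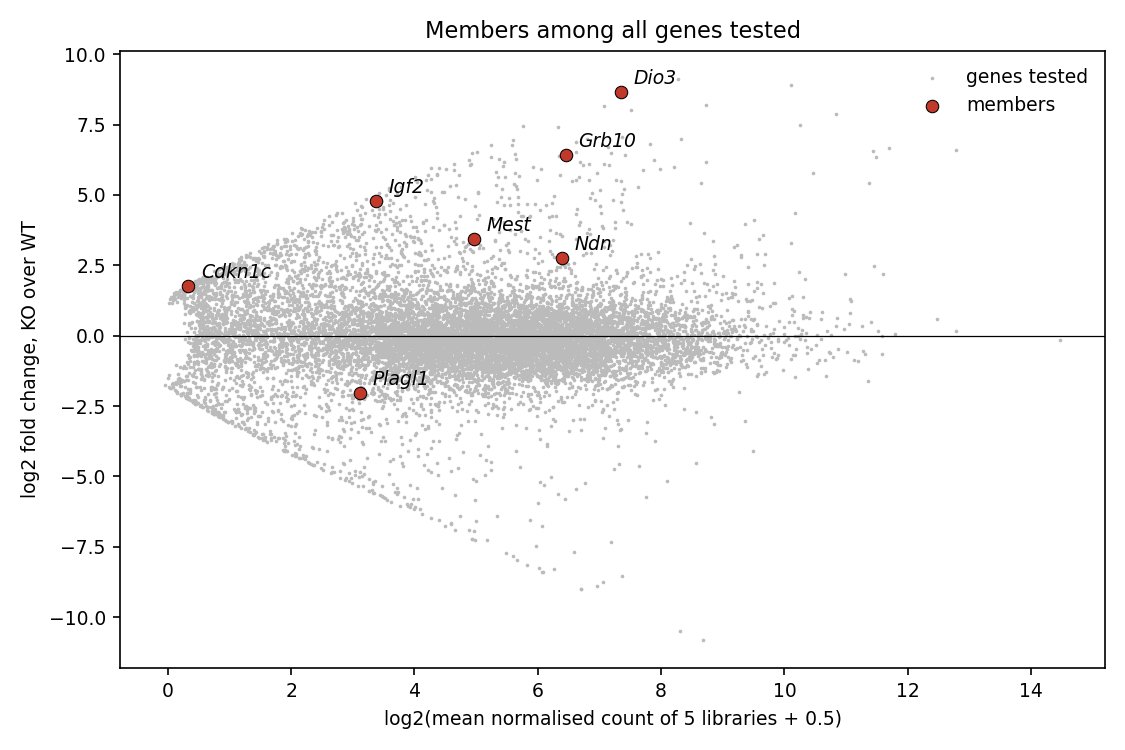
Each grey point is 1 of 12484 genes tested, with the log2 of the mean normalised count of the 5 libraries plus 0.5 on the horizontal axis and the log2 fold change of knockout over wild type on the vertical axis. The 7 members are marked in red, from Dio3 at 8.64 to Plagl1 at -2.03.

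Among the hormone and growth factor genes, Dio3 had the largest difference (ENSMUSG00000075707, chromosome 12, 110279068 to 110281097, plus strand, GRCm38, a gene with a single exon). Its normalised counts were 328, 82.8 and 403 in knockout C1, C2 and SE, against 0.122 and 0 in wild-type C1 and SE. The knockout libraries held 6974, 2188 and 5629 reads, and the wild-type libraries held 3 and 0. The wild-type cells were thus at the limit of detection, and knockout C2 was well below the other knockout libraries. The log2 fold change was 8.64 (SE 0.67, adjusted p = 0.000301, limma), which placed Dio3 at rank 3 from the top of all genes tested. The ratio of knockout to wild-type read rates was 3517, with an exact 95% interval from 1203 to 17056 that covers counting error only.

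Igf2 was also nearly silent in wild-type cells (ENSMUSG00000048583, chromosome 7, 142650766 to 142666816, minus strand). It had 14.9, 12.1 and 22.0 normalised counts in knockout C1, C2 and SE, against 0 and 0.207 in wild-type C1 and SE. The knockout libraries held 316, 321 and 307 reads, and all 4 wild-type reads came from SE. The knockout libraries lay within 1.81-fold of each other. The log2 fold change was 4.78 (SE 0.37, adjusted p = 0.000283, limma), and the ratio of read rates was 168 (exact 95% interval from 65.5 to 619). The fold of means was 158 with both wild-type libraries and 78.8 without wild-type C1. The exons of Igf2 share 3596 bases, 62.8% of their length, with a predicted protein-coding gene annotated on the same strand, so the counting step could have dropped or split its reads. Whether it did was not tested.

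Grb10, which opposes IGF and insulin signals at their receptors, rose as well (ENSMUSG00000020176, chromosome 11, 11930508 to 12038683, minus strand). Its normalised counts were 68.3, 46.2 and 321 in knockout C1, C2 and SE, against 0.122 and 1.76 in wild-type C1 and SE. SE was the highest library in both genotypes, 5.605-fold above the mean of the C libraries in the knockout and 14.5-fold above C1 in the wild type. The groups did not overlap, and the lowest knockout library was still far above the highest wild-type library. The means were 145 ± 153 in the knockout (SD, n = 3) and 0.941 ± 1.16 in the wild type (SD, n = 2), and the log2 fold change was 6.41 (SE 0.91, adjusted p = 0.00285, limma). The fold of means was 154, and it was 60.8 without knockout SE, 82.4 without wild-type C1 and 1194 without wild-type SE. Wild-type C1 held 3 reads of Grb10 and wild-type SE held 34, so the 1194-fold and 14.5-fold values rest on 3 reads.

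Mest and Ndn were above 1 in both wild-type libraries, Mest at a low level, and rose by smaller factors. Mest (ENSMUSG00000051855, chromosome 6, 30723547 to 30748465, plus strand) had 37.4, 33.3 and 74.7 normalised counts in knockout C1, C2 and SE, against 4.50 and 3.11 in wild-type C1 and SE. Its mean was 48.4 ± 22.8 in the knockout and 3.80 ± 0.984 in the wild type, 12.7-fold higher (log2 fold change 3.43, SE 0.42, adjusted p = 0.00157, limma). Every knockout library was at least several times any wild-type library, and SE was the highest in the knockout but the lower of the wild-type pair. Mest shares 912 exonic bases, 23.1% of its length, with Copg2 on the opposite strand, and whether counting used the strand was not given in the sources used here.

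Ndn (ENSMUSG00000033585, chromosome 7, 62346569 to 62350262, plus strand, a gene with a single exon) had 139, 136 and 106 normalised counts in knockout C1, C2 and SE, against 22.0 and 14.9 in wild-type C1 and SE. It had the most even knockout values of the 7, with an SD of 14.4% of the mean. The mean was 127 ± 18.2 in the knockout and 18.4 ± 5.05 in the wild type, 6.87-fold higher (log2 fold change 2.76, SE 0.27, adjusted p = 0.000644, limma). SE was the lowest library of each genotype.

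Cdkn1c, the cell cycle inhibitor of the group, was low in all libraries (ENSMUSG00000037664, chromosome 7, 143458339 to 143461050, minus strand). It had 0.611, 1.55 and 1.65 normalised counts in knockout C1, C2 and SE, from 13, 41 and 23 reads, and no read in either wild-type library. The knockout mean of 1.27 ± 0.573 was at least 9.17-fold higher than a wild-type floor of 3 reads per library, and the log2 fold change of 1.76 (SE 0.35, adjusted p = 0.0106, limma) depends on the pseudocount. The call was lost without wild-type C1 (adjusted p = 0.0877) and without wild-type SE (adjusted p = 0.0864). An antisense transcript covers 625 of its exonic bases, 30.7% of its length.

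Plagl1, a zinc finger factor reported to activate other imprinted genes, was the member that fell (ENSMUSG00000019817, chromosome 10, 13060504 to 13131694, plus strand). It had 1.65, 2.497 and 7.17 normalised counts in knockout C1, C2 and SE, against 11.6 and 18.2 in wild-type C1 and SE. SE was the highest library in both genotypes, and knockout SE approached wild-type C1 without reaching it. The mean was 3.77 ± 2.97 in the knockout and 14.9 ± 4.69 in the wild type, a 3.94-fold lower level in the knockout (log2 fold change -2.03, SE 0.57, adjusted p = 0.0351, limma). The wild-type mean was 7.18-fold above the knockout mean when knockout SE was left out. The call was lost without knockout C1 (adjusted p = 0.0731), without knockout C2 (0.102), without wild-type C1 (0.0826) and without wild-type SE (0.166), and with edgeR's quasi-likelihood test on the recovered reads (0.0522).

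All 7 directions were present within each column suffix, which follows from the lack of overlap between the groups and adds no support. In the C libraries alone, the difference in log2 value, knockout minus wild type, was 8.06 for Dio3, 4.80 for Igf2, 6.51 for Grb10, 2.84 for Mest, 2.61 for Ndn, 1.59 for Cdkn1c and -2.25 for Plagl1. In the SE libraries it was 9.66 for Dio3, 4.99 for Igf2, 7.15 for Grb10, 4.38 for Mest, 2.79 for Ndn, 2.10 for Cdkn1c and -1.29 for Plagl1. The C libraries gave 1 wild-type library against 2 knockout libraries, and a limma fit of these 3, in which the lone wild-type library is assumed to vary like the knockout, called Dio3, Igf2, Grb10, Mest, Ndn and Plagl1, with the highest adjusted p for Plagl1 (0.00333), while Cdkn1c missed the low-value filter. The SE libraries, 1 of each genotype, allow no test. As linear folds, Mest was 7.85-fold higher in the C and 24.0-fold higher in the SE libraries, while Ndn was 6.24-fold and 7.11-fold higher.

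Ranked by level per kilobase of annotated exon, the order of the genes was different in knockout and wild-type cells. In the knockout, Dio3 stood first with 134 ± 82.6 normalised counts per kilobase, followed by Ndn with 34.3 ± 4.94, Grb10 with 16.0 ± 16.8 and Mest with 12.3 ± 5.78 (SD, n = 3). Ndn and Grb10 overlapped in their library values, as did Grb10 and Mest. Igf2 (2.85 ± 0.889) was below Mest and above Cdkn1c (0.623 ± 0.281) in every knockout library, and Cdkn1c overlapped with Plagl1 (0.482 ± 0.380). In the wild type, Ndn stood first with 4.99 ± 1.37 normalised counts per kilobase, followed by Plagl1 with 1.90 ± 0.600, Mest with 0.964 ± 0.249 and Grb10 with 0.104 ± 0.128 (SD, n = 2). None of Ndn, Plagl1, Mest and Grb10 overlapped with its neighbour in that order, whereas Grb10, Dio3 and Igf2 did. Dio3 was thus the highest member in the knockout and among the genes at the limit of detection in the wild type, and Plagl1 was second in the wild type and last in the knockout.

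Within 500 kb of Ndn, Grb10 and Cdkn1c, called genes lay in both directions. The called genes near Dio3 and Mest were higher, like the member. Those near Plagl1 were higher and that near Igf2 was lower, each opposite to the member. The other tested genes near the members were not called. For comparison with the counts below, 17.2% of all genes tested were higher and 17.1% lower. Within 500 kb of Dio3, 1 of 5 tested genes was called, the microRNA gene Mir1247, which lies 0.939 kb from Dio3. It had 117 knockout reads and no wild-type read, at least 16.95-fold higher, and entered the test only through its knockout values. These were mRNA libraries, so the reads need not come from the microRNA itself. Which transcript at this site they came from was not tested. The adjusted p of Mir1247 was 0.0327 in all libraries but 0.126 without wild-type C1 and 0.124 without wild-type SE. Ppp2r5c, a phosphatase subunit gene 166 kb away, averaged 127 ± 24.8 normalised counts in the knockout and 94.1 ± 5.12 in the wild type and did not pass the threshold (adjusted p = 0.233). Within 500 kb of Igf2, 0 of 7 tested genes were higher and 1 was lower, the leukocyte actin-binding gene Lsp1 (3.17 ± 0.0946 in the knockout and 30.4 ± 2.14 in the wild type). The mitochondrial ribosomal gene Mrpl23, 110 kb from Igf2, had 13.5 ± 2.0003 normalised counts in the knockout and 14.8 ± 2.59 in the wild type and was not called (adjusted p = 0.759).

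Of the 3 tested genes near Ndn, 1 was higher and 2 were lower. The non-coding gene Gm9801, 137 kb away, had 104 knockout reads and no wild-type read, at least 11.9-fold higher. Gm9801 entered the test only through its knockout values, so its call carries no weight of its own. Mkrn3, an imprinted ubiquitin ligase gene 67.3 kb away, averaged 0.696 ± 0.405 normalised counts in the knockout and 2.73 ± 0.493 in the wild type (log2 fold change -1.48, adjusted p = 0.0226). Peg12, an imprinted gene 112 kb away, averaged 2.41 ± 1.01 in the knockout and 7.32 ± 1.63 in the wild type (log2 fold change -1.48, adjusted p = 0.0335). Both share the paternal expression of Ndn, and both were low in every library. The call of Mkrn3 was lost without either wild-type library, with an adjusted p of 0.160 without C1 and 0.1002 without SE, and without both SE libraries (0.0519). That of Peg12 was lost without wild-type C1 (0.187), wild-type SE (0.0995) and knockout C2 (0.0746).

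The Cdkn1c neighbourhood was mixed, with 3 higher and 4 lower of 13 tested genes. Slc22a18, a maternally expressed transporter gene 12.7 kb away, averaged 10.9 ± 3.55 normalised counts in the knockout and 0.347 ± 0.197 in the wild type. It was 31.3-fold higher (log2 fold change 3.72, adjusted p = 0.000782, limma), but it entered the test only through its knockout values. Kcnq1ot1, the paternally expressed non-coding RNA that silences this cluster in cis, averaged 1.31 ± 0.332 in the knockout and 3.80 ± 1.85 in the wild type (log2 fold change -1.19, adjusted p = 0.0473). Leaving out any single library ended the call of Kcnq1ot1, with an adjusted p of 0.340 without wild-type C1, 0.0714 without wild-type SE, 0.0598 without knockout C1, 0.118 without knockout C2 and 0.0593 without knockout SE. Nap1l4, 52.5 kb away, did not pass the threshold (adjusted p = 0.242), at 205 ± 26.6 normalised counts in the knockout and 266 ± 33.6 in the wild type.

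Around Mest, 3 of 8 tested genes were higher and 0 lower. The overlapping coatomer gene Copg2 averaged 77.2 ± 14.9 normalised counts in the knockout and 37.2 ± 10.9 in the wild type (log2 fold change 1.06, adjusted p = 0.0320). The centrosomal gene Cep41, 29.8 kb away, averaged 22.7 ± 6.32 in the knockout and 9.47 ± 1.97 in the wild type (log2 fold change 1.20, adjusted p = 0.0347). The call of Copg2 was lost without wild-type C1 (0.204), wild-type SE (0.0524) and knockout C2 (0.103), and that of Cep41 without wild-type C1 (0.0899), wild-type SE (0.186), knockout C1 (0.0856) and knockout C2 (0.0518). Around Plagl1, 3 of 9 tested genes were higher and 0 lower. Phactr2, an actin-binding phosphatase regulator 76.0 kb away, averaged 35.4 ± 8.50 in the knockout and 4.43 ± 0.619 in the wild type, opposite in direction to Plagl1 (log2 fold change 2.85, adjusted p = 0.00102). Around Grb10, 2 of 4 tested genes were higher and 1 lower. The lower gene, the DNA repair gene Fignl1 122 kb away, averaged 19.7 ± 4.41 in the knockout and 74.4 ± 4.55 in the wild type. The higher genes, Zpbp and Gm12002, were below 1 in both wild-type libraries. They entered the test only through their knockout values, so their calls carry no weight of their own.

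**Figure D3:**
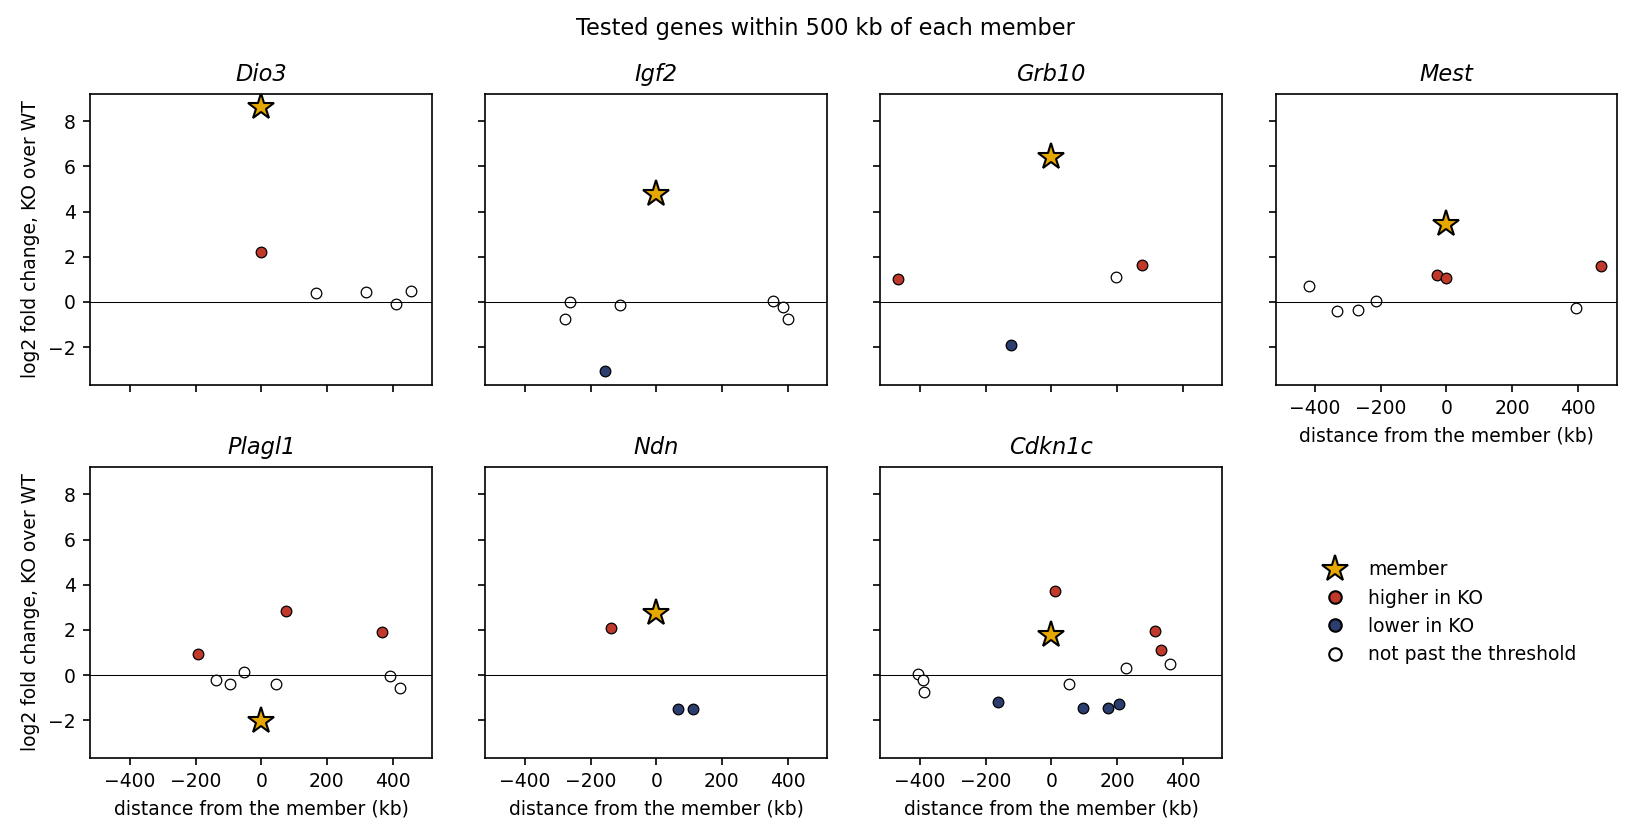
Each panel shows the tested genes within 500 kb of 1 member, with distance from the member in kb on the horizontal axis (negative towards lower coordinates, overlapping genes at 0) and log2 fold change of knockout over wild type on the vertical axis. Stars mark the members, filled circles genes past an adjusted p of 0.05 and open circles the rest. Dio3, Igf2, Grb10, Mest and Ndn lie above all their tested neighbours, and Plagl1 lies below all of its own.

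Other imprinted genes showed no shared direction. Of 34 other imprinted genes tested (of 62 listed), 9 were higher and 5 lower, against 17.2% and 17.1% of all genes tested. The median log2 fold change was -0.12, against -0.09 over all genes tested. Among the higher genes, Slc22a2, Slc22a3, Slc22a18, Asb4 and Nhlrc1 were below 1 in both wild-type libraries. They entered the test only through their knockout values, so their calls carry no weight of their own. The list contains genes that are imprinted mainly in placenta. Of 15 paternally expressed genes tested, 3 were higher and 3 lower, with 0 lower without wild-type C1 or wild-type SE, 1 lower without knockout C2 and 5 higher with the suffix as a block. Among them Sgce, the epsilon-sarcoglycan gene, averaged 197 ± 24.4 normalised counts in the knockout and 59.2 ± 9.13 in the wild type, 3.32-fold higher (adjusted p = 0.0022). Slc38a4, an amino acid transporter gene, averaged 4.26 ± 1.40 in the knockout and 1.02 ± 0.564 in the wild type (adjusted p = 0.0205). Its call was lost without wild-type C1, without wild-type SE and without both SE libraries, with an adjusted p of up to 0.160. Nhlrc1, a ubiquitin ligase gene, averaged 5.12 ± 1.601 in the knockout and 0.552 ± 0.194 in the wild type. Dlk1, at the other end of the cluster that holds Dio3, missed the low-value filter, with 15 knockout and 63 wild-type reads.

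Of 19 maternally expressed genes tested, 6 were higher and 2 lower, against 17.2% and 17.1% of all genes tested. Among the higher genes, Slc22a2, Slc22a3, Slc22a18 and Asb4 entered the test only through their knockout values, as given above. Without knockout C2 the call of Copg2 was lost and 5 were higher. Without knockout SE 4 were lower, and with the suffix as a block 8 were higher and 7 lower. Without wild-type SE 1 was lower and the other, Dcn, was left untested by the low-value filter. Htra3, a secreted serine protease gene, averaged 73.5 ± 10.7 normalised counts in the knockout and 4.93 ± 0.597 in the wild type, 14.9-fold higher. Slc22a2, an organic cation transporter gene, had 316 knockout reads and no wild-type read, at least 35.2-fold higher at a floor of 3 reads per library. The matrix proteoglycan gene Dcn, imprinted in placenta, had 1 knockout read and 36130 wild-type reads, and entered the test only through its wild-type values. Gnas, which encodes the stimulatory G protein alpha subunit, averaged 4.36 ± 1.18 in the knockout and 21.0 ± 4.26 in the wild type, 4.80-fold lower (adjusted p = 0.00458), though its locus makes several overlapping transcripts.

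The network reported for Plagl1 in mouse tissues overlaps with the members, and apart from them 5 of its listed genes were tested. Of these, 2 were higher (Sgce and Slc38a4) and 2 lower (Dcn and Gnas). Without either wild-type library Slc38a4 did not pass, and Dcn was left untested by the low-value filter. The mannose 6-phosphate receptor gene Igf2r, which clears IGF2, did not pass the threshold, at 19.2 ± 18.5 normalised counts in the knockout and 30.2 ± 13.03 in the wild type (adjusted p = 0.340).

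Genes that receive or buffer IGF signals were called in both directions. Apart from the members, 2 of 16 tested genes of this group were higher and 5 lower, against 17.2% and 17.1% of all genes tested. The median log2 fold change was -0.28, and 5 were higher with the suffix as a block and 4 with DESeq2. Without either wild-type library, 2 of the 5 lower genes were left untested by the low-value filter, 2 did not pass and 1 stayed lower. Igfbp7, a secreted IGF-binding-related protein gene, averaged 1208 ± 271 normalised counts in the knockout and 111 ± 24.1 in the wild type, 10.9-fold higher. Igf2bp3, an RNA-binding protein gene named for Igf2 mRNA, averaged 48.1 ± 7.07 in the knockout and 4.53 ± 0.472 in the wild type, 10.6-fold higher. The IGF binding protein gene Igfbp2 had 2 knockout and 173 wild-type reads. The ratio of wild-type to knockout read rates was 121, with an exact 95% interval from 33.1 to 1009. Igfbp2 was below 1 in every knockout library and entered the test only through its wild-type values. Igfbp6, which prefers IGF2 as its ligand, averaged 2.26 ± 0.492 in the knockout and 19.3 ± 2.78 in the wild type, 8.54-fold lower. The receptor gene Igf1r did not pass the threshold, at 18.2 ± 14.5 in the knockout and 31.7 ± 13.4 in the wild type (adjusted p = 0.268). The related adaptor gene Grb14, singled out after its values were seen, averaged 58.5 ± 10.7 in the knockout and 145 ± 1.77 in the wild type, opposite in direction to Grb10 (log2 fold change -1.31, adjusted p = 0.00705, but 0.0565 without wild-type C1 and 0.0513 without wild-type SE).

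Thyroid hormone genes other than Dio3 gave 2 higher and 4 lower of 16 tested, with 4 higher without both SE libraries and also with the suffix as a block. Without wild-type SE neither higher call passed. Without either wild-type library 3 of the 4 lower genes were left untested by the low-value filter, and the other did not pass. The shares over all genes tested were 17.2% higher and 17.1% lower. Dio2, the deiodinase that makes active hormone, had 1 knockout and 146 wild-type reads, opposite in direction to Dio3 (log2 fold change -2.87, adjusted p = 0.000388). Its normalised counts were 0, 0 and 0.0717 in knockout C1, C2 and SE, against 3.20 and 3.47 in wild-type C1 and SE. The transporter genes Slc16a10 and Slco4a1 were lower. Slc16a10 had 4 knockout and 80 wild-type reads, and Slco4a1 had no knockout and 400 wild-type reads, at least 58.9-fold lower. Dio2, Slc16a10 and Slco4a1 were below 1 in every knockout library and entered the test only through their wild-type values. Thrb was below 1 in both wild-type libraries and entered only through its knockout values. The calls of these genes therefore carry no weight of their own. The receptor gene Thrb was higher, at 6.91 ± 5.44 normalised counts in the knockout and 0.199 ± 0.0621 in the wild type (adjusted p = 0.00842), although the adjusted p was 0.0501 without wild-type SE.

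Among the other inhibitors of cyclin-dependent kinases, 2 of 6 tested genes were higher and 1 lower, with 0 lower without wild-type C1 and 2 lower without knockout C1, without both SE libraries or with the suffix as a block. The shares over all genes tested were 17.2% higher and 17.1% lower. Cdkn2b averaged 71.6 ± 13.01 normalised counts in the knockout and 0.482 ± 0.0510 in the wild type, and Cdkn2a averaged 8.35 ± 2.75 in the knockout and 0.170 ± 0.126 in the wild type. Both were below 1 in each wild-type library and entered the test only through their knockout values. Cdkn2c averaged 69.0 ± 10.2 in the knockout and 163 ± 12.3 in the wild type, 2.36-fold lower (adjusted p = 0.0687 without wild-type C1). The nearest relatives of Cdkn1c, singled out after their values were seen, did not pass, with an adjusted p of 0.422 for Cdkn1a and 0.303 for Cdkn1b. Of 5 MAGE genes other than Ndn, 2 were higher and 0 lower, with 4 higher with the suffix as a block. Maged1 averaged 1098 ± 31.2 in the knockout and 522 ± 2.36 in the wild type, 2.11-fold higher, and Maged2 was 1.86-fold higher, and both calls were lost without either wild-type library and without knockout C2, with an adjusted p of up to 0.0925 for Maged1 and 0.123 for Maged2.

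Of 21 genes for imprint maintenance and DNA methylation, 1 (Yy1) was higher and 5 were lower, against 17.2% and 17.1% of all genes tested. Their median log2 fold change was -0.50. None was higher when any single library was left out, after quantile normalisation or with edgeR, and 3, 1, 3 and 2 were lower without wild-type C1, wild-type SE, knockout C1 and knockout C2. Without both SE libraries 9 were lower, as with the suffix as a block. Dnmt1, which copies CpG methylation after replication, had 27.0, 20.6 and 71.7 normalised counts in knockout C1, C2 and SE, against 103 and 244 in wild-type C1 and SE (log2 fold change -2.19, adjusted p = 0.0316). SE was the highest library in both genotypes, and the call was lost without wild-type SE (adjusted p = 0.158), without knockout C1 (0.0675) and without knockout C2 (0.0891). Uhrf1, which recruits Dnmt1 to hemimethylated DNA, averaged 45.8 ± 8.64 in the knockout and 123 ± 24.7 in the wild type, 2.69-fold lower, and its adjusted p was 0.0711 without wild-type SE. Hells, a remodeller needed for DNA methylation, was 3.19-fold lower. Ezh2, the histone methyltransferase of Polycomb, was 2.62-fold lower, with calls lost without wild-type C1, wild-type SE or knockout C2 (adjusted p of up to 0.0930). Smchd1, the remaining lower gene, lay at the threshold (adjusted p = 0.0495, limma). Its call was lost with a pseudocount of 0.1 or 1, with a filter at 5 and with median-of-ratios rescaling. It was also lost with edgeR and with limma without a variance trend or with robust estimation. In each of these fits 4 genes of the list were lower. DNA methylation itself was not measured.

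**Figure D4:**
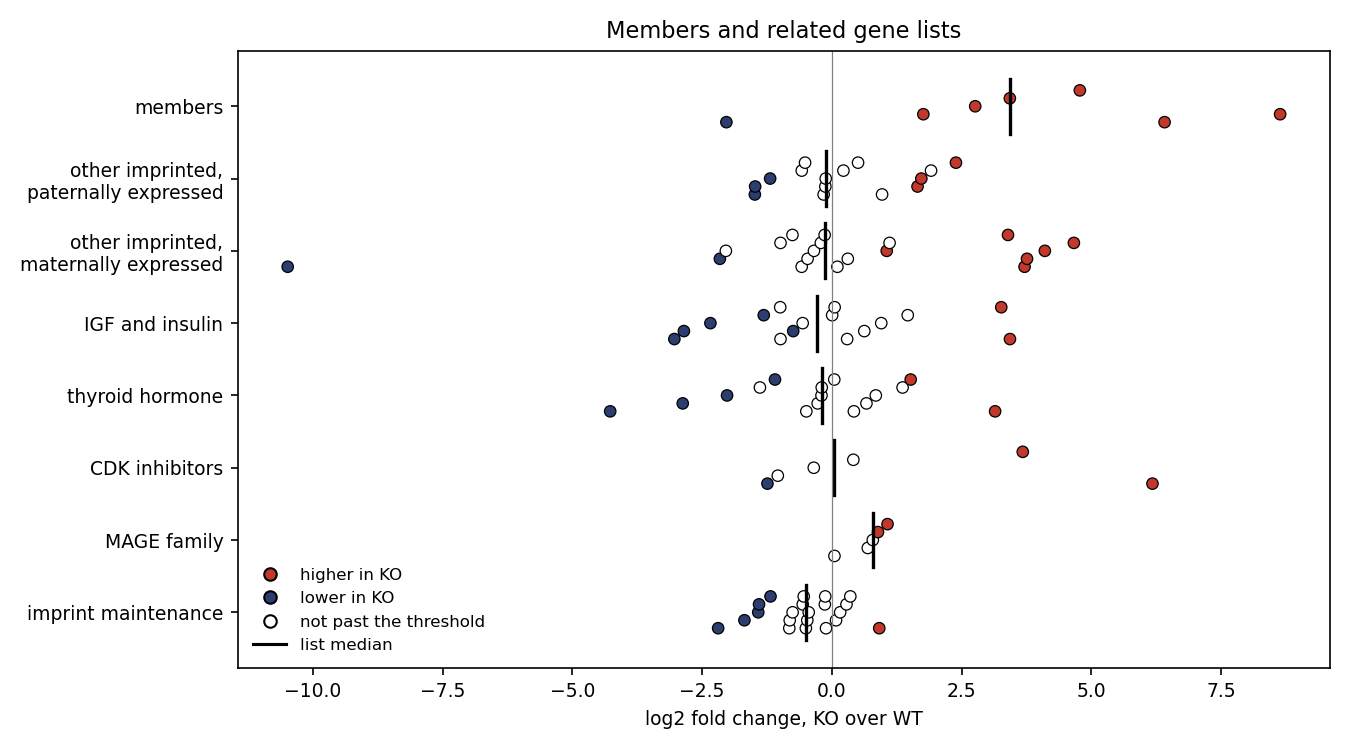
Log2 fold change of knockout over wild type for the 7 members and for the tested genes of related lists, with members left out of those lists. Filled circles passed an adjusted p of 0.05, open circles did not, and vertical bars are list medians, 3.43 for the members and -0.12 and -0.14 for other paternally and maternally expressed genes. The members and lists were chosen with earlier results of these data known.

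The genes most like each member were sought among 10205 tested genes with a mean of at least 5, by the root mean square distance between log2 values centred over the 5 libraries. Dio3 was closest to Lgr5 (0.48) and Sfrp2 (0.77), Igf2 to Dusp27 (0.13) and Podnl1 (0.15), and Grb10 to Akap12 (0.40) and Col1a2 (0.51). Mest was closest to Cdsn (0.13) and Paqr8 (0.19), Ndn to Pex11a (0.05) and Nagk (0.09), Cdkn1c to Pcdhb22 (0.07) and Appl2 (0.10), and Plagl1 to Mast4 (0.20) and Papd7 (0.21). Dio3 and Grb10 thus had no gene as near as the other members had. Over 5 libraries such closeness follows largely from the size of the group difference. For Cdkn1c, with no wild-type read, that size depends on the pseudocount. Its closest gene Pcdhb22 had 4.26 and 4.87 normalised counts in wild-type C1 and SE, so the match does not extend to silence in the wild type.

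Many markers of other cell types differed between knockout and wild-type cells, some higher and some lower in the knockout. All 7 adipocyte markers measured, of 8 listed, were higher in the knockout, with summed normalised counts from 4387 to 10581 in the knockout and from 51.1 to 79.2 in the wild type. Of 7 smooth muscle markers measured, of 8 listed, 6 were higher, with sums from 3366 to 6790 in the knockout and from 162 to 206 in the wild type. Haematopoietic markers, 4 measured of 11 listed, summed to between 50.1 and 59.1 in the knockout and between 66.9 and 94.4 in the wild type, with 2 higher and 1 lower. Stromal markers summed to between 8853 and 28120 in the knockout and between 6885 and 8708 in the wild type, with 2 of 12 higher (Col1a1 and Col1a2) and 3 lower (Ly6a, Cd44 and Nt5e). The 2 epithelial markers measured, of 8, summed to at most 5.69 in the knockout and at least 22.5 in the wild type, and the 3 neural markers measured, of 8, to at most 7.23 in the knockout and at least 69.6 in the wild type. Both epithelial markers were lower, while of the neural ones Sox2, which made up most of the wild-type sum, and Tubb3 were lower and S100b was higher (6.34 in the knockout and 1.94 in the wild type). In bulk RNA, fewer cells of a type and less RNA per cell cannot be told apart. The part of these markers, of Xist and of the suffix in the differences of the 7 genes was not tested.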

How the data were processed

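Stranded mRNA libraries of mouse mesenchymal stem cells were read from 1 end, per the labels' protocols. The submitters' processing notes name STAR 2.5, featureCounts 1.5.2 and edgeR without giving a role, with genome build, annotation and strand setting not given in the sources used here. The deposited values are a signal which, judged from the values themselves, holds each library's read counts divided by 1 factor and brought close to CPM by the authors. Across the 5 libraries these factors were proportional to the library sizes given by edgeR's TMM scaling. Divided by what 1 read is worth, 100% of values came out whole to within 0.02 of a read, and these recovered reads gave depths from 13605555 to 26658725. Column names gave the group and no title number. Coordinates and exon lengths are those of GENCODE M21 (GRCm38), and promoter windows those of RefSeq (GRCm38.p6).

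The test was limma 3.58.1 with a variance trend on log2 of the value plus 0.5, over the 12484 genes that reached 1 in 2 or more libraries. A gene below 1 in every library of 1 group entered only through the values of the other group. The model held the group alone, with 3 residual degrees of freedom and Benjamini-Hochberg adjustment at 0.05. The edgeR 4.0.16 quasi-likelihood test called 2040 genes higher and 2039 lower on the recovered reads, and DESeq2 1.42.0 called 2600 and 2236. Fold changes on this scale are understated for low genes, and each fold divides one group's mean deposited value by the other's. Floors of 3 reads per library and 95% intervals cover counting error only. Scripts were tested on simulated data. Named genes were the members, up to 4 called genes of each related list with the smallest p-values, up to 2 nearest tested neighbours on each side and the 2 closest profiles. Some genes within this rule are given only in counts, and genes named outside it were chosen after their values were seen. The members and lists were chosen with earlier results of these data known. Calculations used R 4.3.3 and Python 3.11.15.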

Additional observations from a re-analysis of the deposited data

How the results depend on the processing

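Across 18 alternative fits, Dio3, Igf2, Grb10, Mest and Ndn kept their direction and stayed past the threshold, with the highest adjusted p being 0.00232 for Dio3, 0.00355 for Igf2, 0.0173 for Grb10, 0.0122 for Mest and 0.00643 for Ndn. No result reversed. Leaving out each library in turn, the log2 fold change of Plagl1 lay between -2.56 and -1.65 and that of Cdkn1c between 1.76 and 2.07, and the count of members called lower lay between 0 and 1. Over the same fits, the genes called higher in the knockout numbered 1049 (without wild-type SE; 1134 without wild-type C1) to 2332 and those called lower 594 (without wild-type C1; 627 without wild-type SE, 1280 without knockout C2) to 2632. Where a fit without a wild-type library was made, the lone one left was assumed to vary like the knockout. With edgeR on the recovered reads, Plagl1 had a log2 fold change of -1.99 and 0 members were called lower (adjusted p = 0.0522 and an unadjusted p of 0.0175 for Plagl1, while DESeq2 and limma each called 1 member lower). With the column suffix as a block, 3530 genes were called higher and 4038 lower. Cdkn1c had no value where the low-value filter removed it. Of 26 other named list genes, 17 kept their call in every alternative that tested them. Leaving out a wild-type library also removes genes near 0 in the knockout from the test, through the low-value filter. Otherwise the cause of these changes was not tested. No paired analysis was possible because the columns carry none of the replicate numbers of the titles, and the suffix used as a block above is not explained as a pairing by the labels. Reads limit Cdkn1c, Dio3 and Igf2, whose wild-type libraries held at most 4 reads, and Grb10 in wild-type C1, which held 3.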

Other observations

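Imprinted genes in other clusters were looked at after their values were seen. In the cluster of Sgce, the maternally expressed gene Asb4 averaged 28.6 ± 11.3 normalised counts in the knockout and 0.622 ± 0.439 in the wild type, 46.1-fold higher, while Peg10, next to Sgce, averaged 4.01 ± 3.54 in the knockout and 3.62 ± 0.883 in the wild type and was not called (adjusted p = 0.896, limma). In the cluster of Igf2r, Slc22a3 had 541 knockout reads and no wild-type read, at least 63.7-fold higher, whereas Igf2r and Airn were not called. Snrpn, which shares its imprinting centre with Ndn, averaged 18.6 ± 4.01 in the knockout and 16.1 ± 5.78 in the wild type (adjusted p = 0.661).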
